A study of Mus musculus with 18 samples.

Results

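The genes described here are 38 targets of the transcription factor MYC, most of them in ribosome biogenesis, and their levels were compared across 18 end-stage splenic tumours. The members were named by symbol, and each was read from the probe set that names it alone, taking the probe set of highest mean over the 18 arrays where there were several. Of the 38, 37 were measured among 19938 genes in all. Ppan was left out because its probe set also names another gene. Every mouse was C57BL/6 and carried the Eμ-MYC transgene, whose enhancer, from the immunoglobulin heavy chain locus, makes B lineage cells overexpress Myc. In the comparison, 9 tumours were wild type for Prdm11 (WT) and 9 were Prdm11 knockout (KO), with a separate untreated mouse behind each tumour and ages not stated. No control without the transgene was analysed here. The p-values below measure the spread between mice of a group. The tumours were frozen whole and homogenised, so that each array reads tumour cells together with the other cells of the spleen.

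MYC binds DNA with its partner MAX at E-box sequences and raises the transcription of genes that build ribosomes, make nucleotides and polyamines and drive entry into the cell cycle. Ribosome biogenesis starts in the nucleolus, where RNA polymerase I transcribes the ribosomal RNA precursor. Small nucleolar ribonucleoproteins (snoRNPs) modify that precursor, the small subunit processome and the large subunit assembly factors cut and fold it, and nucleolar chaperones carry subunits onward. In Eμ-MYC mice these genes are known as part of the growth programme of pre-malignant and malignant B cells.

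Promoter sequences show where the canonical E-box lies. RefSeq promoter windows (GRCm38.p6, 250 bases before to 50 after a start site) were matched by symbol for 30 of the 38 members, and 9 of the 30 (30.0%) held CACGTG, a palindrome that reads the same on both strands, against 8.09% of all 27025 genes with a window and 1483 of the 15614 of them measured on the arrays. A match of these letters is a description and not a bound site. The 250 bases before the start site are shown for 4 members, chosen after the sites were seen because all the sites in the windows shown lie before the start, with each CACGTG in capitals. Cdk4, the G1 cyclin-dependent kinase, has 4 sites, whose first bases lie at -172, -118, -98 and -11 relative to the start. The windows are chr10:127063285-127063534 (plus strand) for Cdk4, chr6:125131633-125131882 (plus strand) for Nop2, a ribosomal RNA methyltransferase, chr11:69672424-69672673 (minus strand) for Eif4a1, the RNA helicase of translation initiation, and chr11:93968273-93968522 (minus strand) for Nme1, a nucleoside diphosphate kinase.
Cdk4: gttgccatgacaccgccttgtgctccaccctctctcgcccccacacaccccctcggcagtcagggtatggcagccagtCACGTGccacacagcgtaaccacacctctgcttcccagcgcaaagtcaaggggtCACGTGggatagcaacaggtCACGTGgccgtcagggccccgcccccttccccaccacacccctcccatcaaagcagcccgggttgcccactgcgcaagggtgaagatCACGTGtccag
Nop2: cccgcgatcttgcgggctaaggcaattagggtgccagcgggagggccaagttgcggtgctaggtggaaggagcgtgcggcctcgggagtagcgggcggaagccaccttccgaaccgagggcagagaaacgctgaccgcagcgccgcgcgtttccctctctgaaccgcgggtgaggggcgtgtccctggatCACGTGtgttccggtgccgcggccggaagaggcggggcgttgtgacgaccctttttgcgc
Eif4a1: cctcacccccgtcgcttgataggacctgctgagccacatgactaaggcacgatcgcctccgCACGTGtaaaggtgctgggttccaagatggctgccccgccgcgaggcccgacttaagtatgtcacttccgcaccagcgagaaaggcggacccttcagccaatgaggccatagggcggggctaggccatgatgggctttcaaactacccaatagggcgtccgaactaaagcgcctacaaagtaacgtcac
Nme1: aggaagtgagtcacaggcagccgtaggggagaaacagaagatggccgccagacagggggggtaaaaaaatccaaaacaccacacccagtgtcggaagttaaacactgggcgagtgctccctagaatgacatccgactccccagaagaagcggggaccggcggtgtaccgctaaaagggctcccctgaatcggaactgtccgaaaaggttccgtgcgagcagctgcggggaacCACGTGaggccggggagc
Other sites lay at or after the start in Utp20, Pes1, Mybbp1a and Wdr43, and Apex1, a DNA repair endonuclease, held 3 sites around it. Of the members that rose with Myc level in the test described further on, 6 of the 14 with a window held CACGTG, as did 3 of the 15 that did not pass that test; the remaining window is that of Ppan. Cdk4, with the most sites, was among the latter.

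Levels are log2 RMA intensities, where RMA is the array normalization the authors used, and a difference of 1 is a 2-fold change. The array medians ran from 5.14 to 5.38, and WT tumour 3 was least like the rest (median r with the 17 other arrays 0.924, and 0.957 to 0.975 for the others). The Prdm11 probe set averaged 5.33 ± 0.26 (SD, n = 9) in WT and 5.21 ± 0.23 (SD, n = 9) in KO tumours, at percentile 46.2 of all genes. Where it lies relative to the deletion is not stated, which leaves the genotype labels unchecked by it. Whether the Myc probe set reads the transgene, the endogenous gene or both is not stated either. The mean of 13 pan-B markers ran from 6.39 to 7.39 in WT and from 6.45 to 7.62 in KO tumours, with Cd79b, a B cell receptor subunit, brightest at a mean of 9.61. The mean of 13 T cell markers ran from 5.06 to 6.94 and from 5.08 to 6.96, that of 11 erythroid markers from 7.58 to 9.53 and from 6.74 to 8.31, and that of 15 macrophage markers from 6.51 to 7.50 and from 6.48 to 7.24. In whole tumours, fewer cells of a type and less RNA per cell cannot be told apart.

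The members were mostly bright. Their median level lay at percentile 92.2 of all genes, 21 of 37 were above percentile 90, and the dimmest, Rrp12, a ribosome export factor, lay at percentile 53.2. Npm1, nucleophosmin, averaged 11.67 ± 0.15 in WT and 11.77 ± 0.23 in KO tumours (SD, n = 9 each, as in all such values that follow). Ncl, nucleolin, averaged 11.31 ± 0.44 in WT and 11.55 ± 0.25 in KO tumours. Odc1, the first enzyme of polyamine synthesis, averaged 11.14 ± 0.19 in WT and 11.04 ± 0.28 in KO tumours. The level of a probe set also depends on its probes, so these values give no order of transcript abundance between genes.

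For 3 members the probe set used is numbered away from those of the gene's own chromosome. It may read a copy of the gene elsewhere, such as a processed pseudogene, in place of or beside the gene itself, which was not tested and which limits what the levels, differences and slopes of Odc1, Fbl and Eif4a1 below stand for. The probe set used for Odc1, a gene of chromosome 12, is numbered among probe sets whose neighbours name genes of chromosome 8. The one used for Fbl, a gene of chromosome 7, sits among genes of chromosome 17, and the one used for Eif4a1, a gene of chromosome 11, among genes of chromosome 1. The other Odc1 probe set, numbered among chromosome 12 genes, had a mean of 10.52 ± 0.53 in WT and 10.60 ± 0.48 in KO tumours (KO minus WT 0.07), whereas the used one had a difference of -0.10, so the sign for Odc1 depends on the probe set. Their levels correlated over the 18 tumours with r = 0.78. For Fbl the probe set among chromosome 7 genes had 5.43 ± 0.35 in WT and 5.67 ± 0.31 in KO tumours and correlated with the used one at r = 0.41. For Eif4a1 the corresponding correlation was 0.97. Nme1 and Nme2 are close paralogs, and their probe sets correlated at r = 0.65 over 18 tumours; shared signal between them was not tested.

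The members varied together from tumour to tumour. The mean over the 37 members, called the member mean, was highest in KO tumour 9 at 8.67 and lowest in WT tumour 4 at 7.87, a 1.74-fold range. Of 666 pairs of members, 625 had a positive Pearson correlation over the 18 tumours, with a median r of 0.49 and a range from -0.65 to 0.95. Against the mean of the other members, the median r was 0.69 and 30 of 37 members were above 0.5, while the median r of the 19901 other genes with the member mean was -0.11 and 7.52% of them were above 0.5. Utp20, a scaffold of the small subunit processome, followed the others most closely (r = 0.93), then Mybbp1a, a nucleolar MYB-binding protein (r = 0.90), and Pa2g4, a nucleolar growth regulator (r = 0.89). The loosest were Nme2 (r = 0.20), Npm1 (r = 0.33) and Rrp12 (r = 0.35). Rrp12 ran from 4.97 over 5.33 to 5.83 in WT and from 5.26 over 5.48 to 6.10 in KO tumours. All these correlations share the same arrays and their normalization. The 19901 other genes include dimmer ones, whereas all 37 members lie above the median gene, and genes of like level were not compared alone.

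The extremes fell in few tumours. KO tumour 3, which had the highest Myc level of all 18, was the highest tumour for 13 members. KO tumour 9 was highest for 9 members but ranked 13 of 18 for Myc. At the low end, WT tumour 4, with the lowest Myc level, was the lowest tumour for 13 members and KO tumour 4 for 7. The heat map of members by tumour shows these columns.

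**Figure D1:**
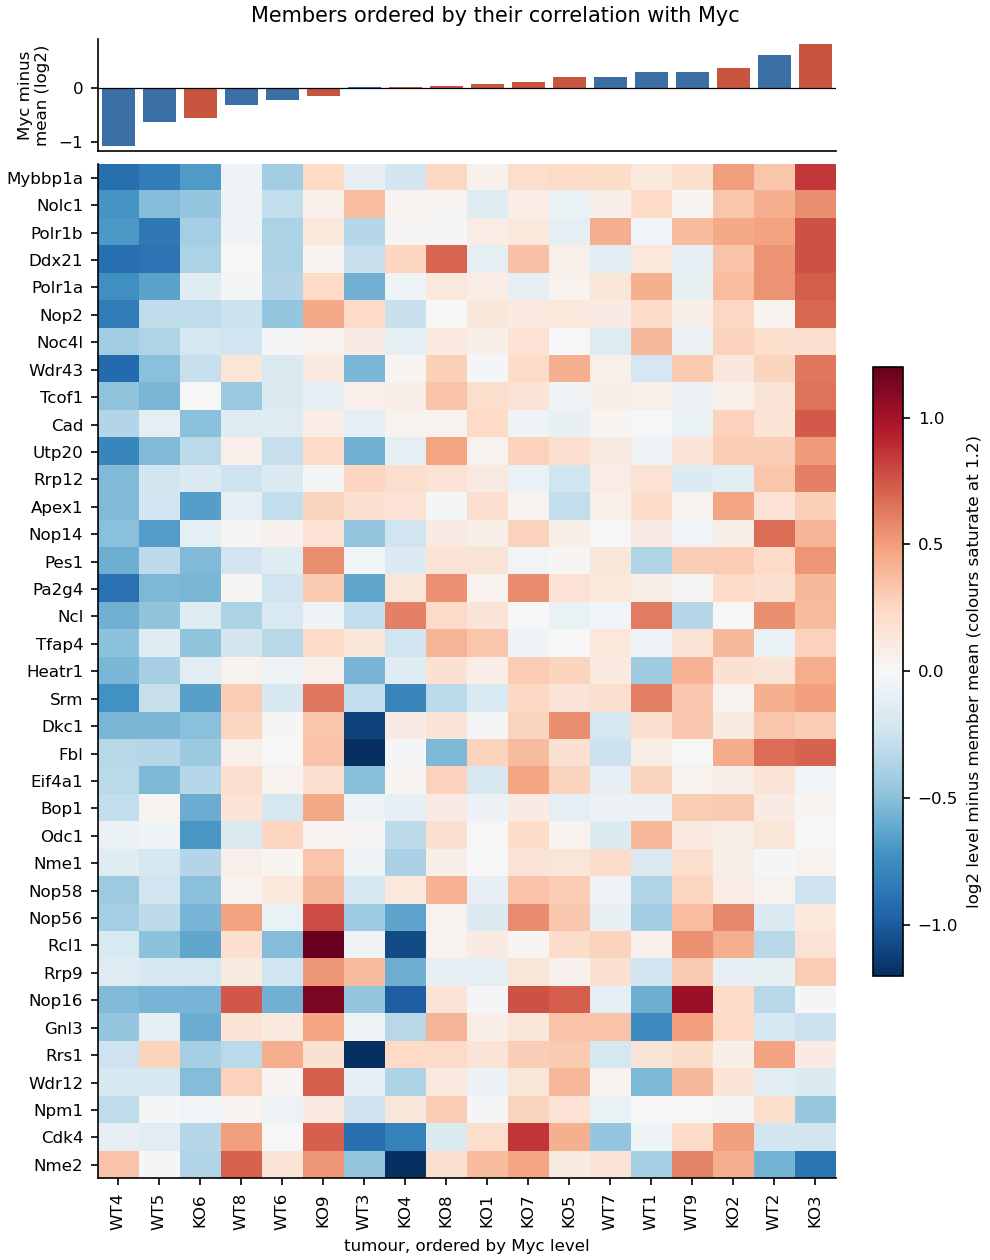
Each row is a member, ordered from high to low correlation with Myc, and each column a tumour, ordered by Myc level (bars above, blue WT and red KO, log2 minus the mean of 18 tumours); colours give the log2 level minus the member's mean. The upper rows run from blue at the left (WT tumours 4 and 5, KO tumour 6) to red at the right (KO tumour 3), while the lower rows follow no such order and hold their deepest blue in KO tumour 4 and WT tumour 3 and much of their red in KO tumour 9.

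By Prdm11 genotype, the members leaned higher in KO tumours, and 0 of 37 passed the adjusted threshold of limma in either direction. The member mean ran from 7.87 over a median of 8.34 to 8.53 in the WT tumours and from 7.95 over 8.50 to 8.67 in the KO tumours, so that the groups overlapped. Its averages were 8.25 ± 0.24 (SD, n = 9) and 8.44 ± 0.24 (SD, n = 9), a difference of 0.18 (SE 0.11), with 7 of 9 KO tumours above the WT median. The difference was above 0 for 33 of 37 members, against 40.8% of all genes, and the median member difference was 0.20 against -0.03 over all genes. At an unadjusted p below 0.05, limma had 6 members higher in KO tumours (2.83% of all genes) and 0 lower (3.87% of all genes). In level all 37 members lie above the median gene. Among the 9969 genes there, 5245 had a difference above 0, with a median of 0.01. In a limma fit of these genes alone, 460 were higher at that p, 5 members among them. Over all 19938 genes 0 were higher past the adjusted threshold (0% of all genes) and 1 was lower (0.00502% of all genes). In 0 of the 37 members were the groups free of overlap (0.01% of all genes). The count of 6 was 2, 3 and 3 without WT tumour 4, WT tumour 5 or KO tumour 3, and 10 and 12 without WT tumour 2 or KO tumour 6. Over all genes the counts in these runs were 375, 399 and 448, and 935 and 636. With array weights 14 members were counted, among 1117 genes that were higher in KO tumours at that p against 564 in the unweighted fit.

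Myc itself ran from 9.03 over a median of 10.11 to 10.71 in WT tumours and from 9.55 over 10.18 to 10.91 in KO tumours. The difference was 0.19 (SE 0.20, limma adjusted p = 0.873), and the groups overlapped. The pan-B marker mean differed by 0.37 (SE 0.15) and the erythroid marker mean by -0.55 (SE 0.27) between the same groups, and the part of these in the member differences was not tested by a fit with the pan-B mean. With the T cell, macrophage and erythroid means as covariates the median member difference was 0.17, with 29 of 37 positive and 6 at an unadjusted p below 0.05. At that p 1308 of 19938 genes were higher in KO tumours in that limma fit, against 564 without covariates. With Myc level and the mitosis mean as covariates the median member difference was 0.11, with 30 positive and 4 at an unadjusted p below 0.05. In that fit 617 of 19914 genes were higher at that p.

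Among the 6 rRNA transcription members, all had positive differences. Tcof1, treacle, which links RNA polymerase I to its factor UBF, ran from 5.79 over 6.26 to 6.50 in WT and from 6.23 over 6.42 to 6.99 in KO tumours. The highest 4 KO tumours exceeded the whole WT range, and the difference was 0.30 (SE 0.12), a 1.23-fold higher mean (limma adjusted p = 0.699). Heatr1, a processome factor also needed for polymerase I transcription, ran from 7.59 over 8.11 to 8.56 in WT and from 7.999 over 8.33 to 8.59 in KO tumours. Its groups overlapped over most of their range, and KO minus WT was 0.28 (SE 0.13), or 1.21-fold (limma adjusted p = 0.739). The large polymerase I subunit Polr1a averaged 5.96 ± 0.46 in WT and 6.24 ± 0.27 in KO tumours (KO minus WT 0.29, SE 0.17). Its partner Polr1b averaged 5.90 ± 0.49 in WT and 6.13 ± 0.33 in KO tumours (KO minus WT 0.23, SE 0.18). Mybbp1a averaged 6.85 ± 0.46 in WT and 7.17 ± 0.43 in KO tumours (KO minus WT 0.32, SE 0.19). Nolc1, a snoRNP chaperone, was the member of this group with the smallest difference, 0.09 (SE 0.15), at 7.61 ± 0.39 in WT and 7.70 ± 0.29 in KO tumours.

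In the small subunit group all 6 members also had positive differences. Utp20 ran from 5.91 over 6.62 to 6.97 in WT and from 6.36 over 6.91 to 7.19 in KO tumours (KO minus WT 0.36, SE 0.15), or 1.28-fold (limma adjusted p = 0.699). Wdr43, an early processome subunit, ran from 9.28 over 10.05 to 10.53 and from 9.94 over 10.35 to 10.84, a difference of 0.35 (SE 0.16), or 1.27-fold (limma adjusted p = 0.721). The genotypes overlapped for each of these genes, and 8 of 9 KO tumours lay above the WT median for Wdr43. Nop14, a processome subunit, averaged 7.79 ± 0.40 in WT and 7.97 ± 0.19 in KO tumours (KO minus WT 0.18, SE 0.14). Its partner Noc4l averaged 5.97 ± 0.26 in WT and 6.09 ± 0.15 in KO tumours (KO minus WT 0.12, SE 0.10). The remaining members of the group differed by less than 1 SE. These were the processing factor Rcl1, at 7.18 ± 0.36 in WT and 7.29 ± 0.63 in KO tumours (KO minus WT 0.11, SE 0.22), and Rrp12, with 0.10 (SE 0.13).

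Of the large subunit members, all 8 measured had positive differences. Ddx21, a nucleolar RNA helicase, ran from 7.40 over 8.17 to 8.85 in WT and from 7.93 over 8.56 to 9.07 in KO tumours. Its difference of 0.45 (SE 0.18, limma adjusted p = 0.699) was the largest among the members, a 1.37-fold higher mean, and 2 KO tumours exceeded the WT range. The PeBoW complex of Pes1, Bop1 and Wdr12 acts in the maturation of the large subunit rRNA. Pes1 averaged 7.06 ± 0.30 in WT and 7.28 ± 0.34 in KO tumours (KO minus WT 0.22, SE 0.14). Bop1 averaged 5.75 ± 0.18 in WT and 5.77 ± 0.30 in KO tumours (KO minus WT 0.03, SE 0.12). Wdr12 averaged 10.05 ± 0.28 in WT and 10.14 ± 0.38 in KO tumours (KO minus WT 0.10, SE 0.15). Over the 18 tumours Pes1 correlated with Bop1 at r = 0.73 and with Wdr12 at r = 0.60. Nop2 averaged 6.70 ± 0.36 in WT and 6.97 ± 0.32 in KO tumours (KO minus WT 0.26, SE 0.15). The assembly factor Nop16 averaged 8.13 ± 0.61 in WT and 8.44 ± 0.66 in KO tumours (KO minus WT 0.31, SE 0.27). Among the assembly factors Rrs1 spread most in WT tumours, at 9.76 ± 0.74 in WT and 10.02 ± 0.21 in KO tumours (KO minus WT 0.26, SE 0.24). Gnl3, nucleostemin, averaged 10.56 ± 0.39 in WT and 10.67 ± 0.37 in KO tumours (KO minus WT 0.11, SE 0.17).

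Pa2g4 had the smallest unadjusted p of the members. It ran from 9.62 over 10.52 to 10.71 in WT and from 9.97 over 10.74 to 11.08 in KO tumours. The WT maximum was exceeded by 5 of 9 KO tumours, while KO tumour 6 was low. The difference was 0.41 (SE 0.16, limma adjusted p = 0.699), a 1.33-fold higher mean. Ncl and Npm1 differed by 0.24 (SE 0.16) and 0.10 (SE 0.10).

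The snoRNP proteins had 4 of 5 differences above 0. The methyltransferase Fbl averaged 10.17 ± 0.50 in WT and 10.47 ± 0.41 in KO tumours (KO minus WT 0.29, SE 0.20). Its partner Nop56 averaged 9.24 ± 0.34 in WT and 9.48 ± 0.50 in KO tumours (KO minus WT 0.24, SE 0.19). Nop58, the other partner, averaged 10.14 ± 0.23 in WT and 10.32 ± 0.32 in KO tumours (KO minus WT 0.18, SE 0.13). These core proteins of one snoRNP class all had positive differences under 2 SE. The pseudouridine synthase Dkc1 averaged 9.15 ± 0.50 in WT and 9.44 ± 0.29 in KO tumours (KO minus WT 0.29, SE 0.18). Rrp9, of the U3 particle, averaged 5.86 ± 0.24 in WT and 5.84 ± 0.32 in KO tumours (KO minus WT -0.02, SE 0.13).

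The metabolic members had 3 of 5 differences below 0. Odc1 differed by -0.10 (SE 0.12). Srm, spermidine synthase, averaged 8.37 ± 0.43 in WT and 8.28 ± 0.49 in KO tumours (KO minus WT -0.08, SE 0.20). Nme2 averaged 8.45 ± 0.46 in WT and 8.34 ± 0.67 in KO tumours (KO minus WT -0.11, SE 0.25). Its paralog stood close to 0 and Cad above it. Nme1 averaged 10.69 ± 0.16 in WT and 10.71 ± 0.24 in KO tumours (KO minus WT 0.02, SE 0.10). Cad, which starts pyrimidine synthesis, averaged 5.81 ± 0.14 in WT and 5.98 ± 0.33 in KO tumours (KO minus WT 0.17, SE 0.12).

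The remaining 4 targets all had positive differences. Cdk4 averaged 9.37 ± 0.40 in WT and 9.62 ± 0.55 in KO tumours (KO minus WT 0.25, SE 0.21). The transcription factor Tfap4 averaged 5.79 ± 0.23 in WT and 5.98 ± 0.31 in KO tumours (KO minus WT 0.20, SE 0.13), and 5 of 9 KO tumours exceeded its WT range. Apex1 averaged 8.17 ± 0.26 in WT and 8.27 ± 0.34 in KO tumours (KO minus WT 0.10, SE 0.14). Eif4a1 averaged 10.24 ± 0.30 in WT and 10.40 ± 0.25 in KO tumours (KO minus WT 0.17, SE 0.13). The plot of tumour values by genotype shows how far the groups overlapped for the member mean and for the 5 members of smallest unadjusted p.

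**Figure D2:**
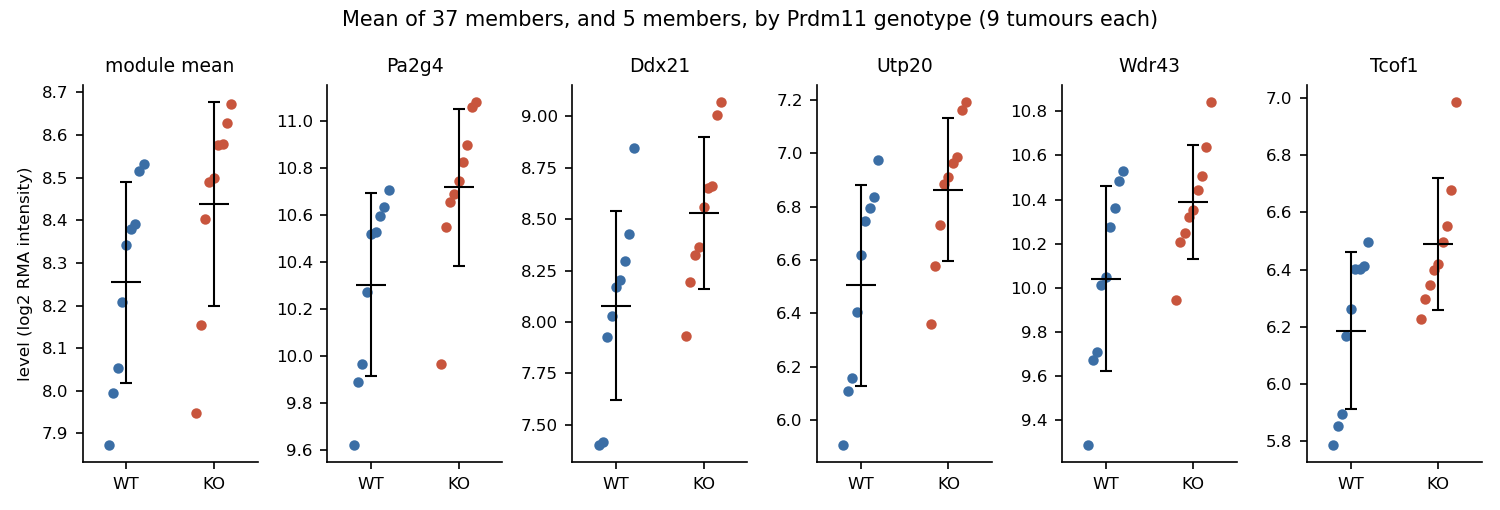
Log2 levels of the member mean and of 5 members in 9 WT (blue) and 9 KO (red) tumours, sorted within a group, with bars for the mean and SD; each panel has its own axis, which does not start at 0. The 5 members are those with the smallest unadjusted limma p by genotype, all with positive differences, so they do not stand for the 37. Of the 37 members, 33 had a difference above 0. In every panel shown the KO mean lies above the WT mean, which for the 5 members follows from that choice. The ranges overlap, with 5 KO tumours above all WT tumours for Pa2g4 and 4 for Tcof1.

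Across tumours, many members rose with Myc level. In a limma fit of Myc level and genotype over all genes, 17 of 37 members had a positive slope past the adjusted threshold (2% of all genes) and 0 a negative one (1.91% of all genes). Positive slopes were found for 35 of 37 members against 52.4% of all genes, and the median slope was 0.43 against 0.01 over all genes, in log2 units of the member per log2 unit of Myc. At an unadjusted p below 0.05 the positive slopes numbered 23 (8.14% of all genes) and the negative ones 0 (6.92% of all genes). In a limma fit of the 9968 genes above the median gene, 481 were called upward, 18 members among them, and 5343 had a positive slope. As a description, r with Myc was above 0.5 for 22 members (7.02% of all genes). Myc spanned 1.88 log2 units over the 18 tumours. The count of 17 fell to 5 without WT tumour 4, 9 without WT tumour 2, 10 without WT tumour 5, 10 without KO tumour 6 and 11 without KO tumour 3, and the calls over all genes fell with it, to between 113 and 261 positive against 399. Ddx21, Mybbp1a, Nolc1, Polr1a and Polr1b stayed past the threshold with any single tumour left out.

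The rRNA transcription group followed Myc most closely, with 5 of 6 members past the threshold. Mybbp1a had the largest slope of the members, 0.90 (SE 0.11, limma adjusted p = 0.000902), a 1.87-fold higher level per doubling of Myc. It ran from 6.11 in WT tumour 4 to 7.86 in KO tumour 3, the tumours of lowest and highest Myc. Nolc1, which ran from 6.94 over 7.69 to 8.09 in WT and from 7.19 over 7.69 to 8.21 in KO tumours, had a slope of 0.69 (SE 0.10, limma adjusted p = 0.00145). Polr1b, which ran from 5.16 over 5.97 to 6.50 in WT and from 5.60 over 6.11 to 6.78 in KO tumours, had 0.81 (SE 0.12, limma adjusted p = 0.00162). Both were lowest in WT tumours and highest in KO tumour 3. Polr1a, which ran from 5.36 over 6.01 to 6.64 in WT and from 5.96 over 6.19 to 6.83 in KO tumours, had 0.69 (SE 0.13, limma adjusted p = 0.00545). Tcof1 had 0.45 (SE 0.10, limma adjusted p = 0.0124), and Heatr1, with 0.39 (SE 0.13), did not pass. The mean of the 6 correlated with Myc at r = 0.94 (rho = 0.89) over 18 tumours, 0.95 within WT and 0.94 within KO tumours, and 0.88 without WT tumour 4 and KO tumour 3.

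Small subunit members came next, with 5 of 6 past the threshold of limma. Wdr43 had a slope of 0.62 (SE 0.12) and Utp20 of 0.57 (SE 0.12), and Nop14, Rrp12 and Noc4l had 0.51, 0.44 and 0.37. Rcl1 did not pass, with 0.30 (SE 0.26). In the large subunit group 3 of 8 passed, namely Ddx21 with 0.78 (SE 0.13, limma adjusted p = 0.00256), Nop2 with 0.61 (SE 0.12) and Pes1 with 0.51 (SE 0.13). Bop1 and Wdr12, the partners of Pes1, had 0.23 (SE 0.13) and 0.07 (SE 0.18). The others were at 0.26 (SE 0.32) for Nop16, 0.19 (SE 0.28) for Rrs1 and 0.15 (SE 0.20) for Gnl3.

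Of the snoRNP proteins 0 of 5 passed in limma (2 at an unadjusted p below 0.05), a count that depends on the probe set of Fbl. Its probe set among chromosome 7 genes rose with Myc level, with a slope of 0.61 (SE 0.11, limma adjusted p = 0.00541), as did the mean of both probe sets, with 0.56 (SE 0.12, limma adjusted p = 0.0113). On the probe set used, Fbl had 0.51 (SE 0.21), and Dkc1 had 0.47 (SE 0.19), while Nop56, Nop58 and Rrp9 had 0.23, 0.18 and 0.18. Among the nucleolar proteins Pa2g4 passed with 0.59 (SE 0.14, limma adjusted p = 0.0204), and Ncl had 0.52 (SE 0.15, limma adjusted p = 0.0538). Srm and Cad passed among the metabolic members, with 0.69 (SE 0.18) and 0.43 (SE 0.11), and Apex1 among the remaining targets, with 0.49 (SE 0.12), while Odc1, Nme1, Tfap4 and Eif4a1 had 0.26, 0.17, 0.38 and 0.27. The smallest t values belonged to Nme2, with a slope of -0.34 (SE 0.29), Cdk4, with -0.04 (SE 0.25), and Npm1, with 0.02 (SE 0.12). Nme2 ran from 7.83 over 8.55 to 9.11 in WT and from 7.02 over 8.59 to 8.93 in KO tumours. Cdk4 ran from 8.58 over 9.39 to 9.99 in WT and from 8.68 over 9.70 to 10.35 in KO tumours. Npm1 ran from 11.42 over 11.70 to 11.94 in WT and from 11.27 over 11.84 to 12.03 in KO tumours, and was lowest in KO tumour 3, the tumour of highest Myc.

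**Figure D3:**
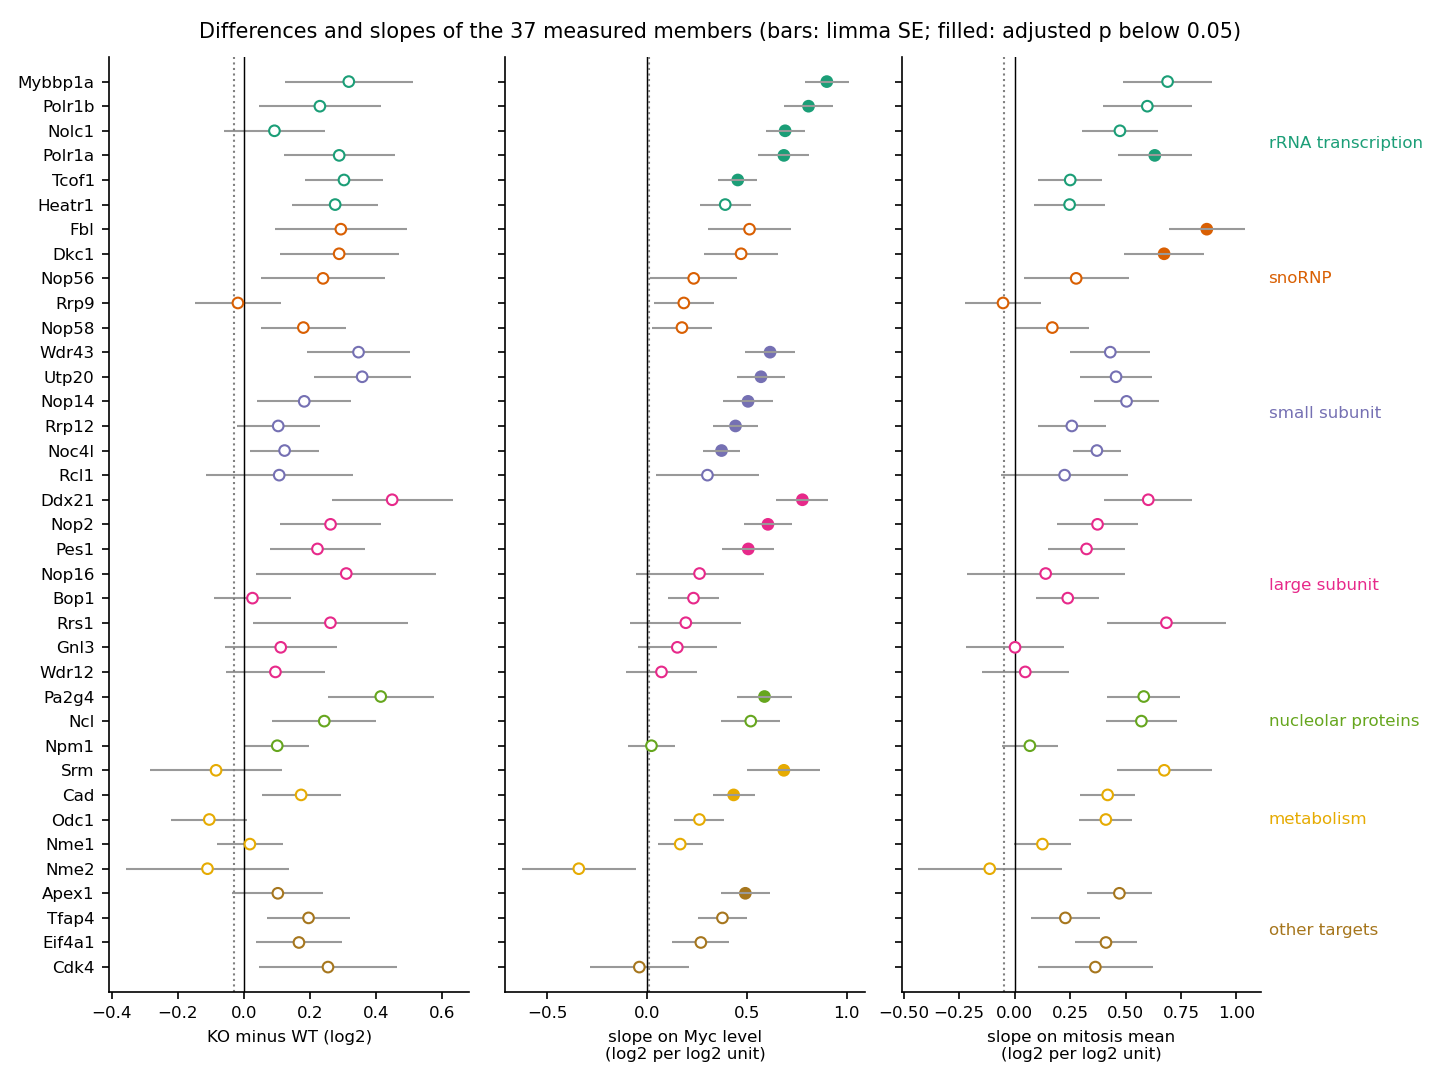
Points give the KO minus WT difference (left), the slope on Myc level (middle) and the slope on the mean of mitosis genes (right) of each measured member in log2 units, with bars for the limma SE, filled where the adjusted p was below 0.05; colours mark the groups and dotted lines the median over all genes. Filled points are absent at the left, 17 in the middle and 3 at the right.

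The member mean correlated with Myc level at r = 0.76 (rho = 0.68) over 18 tumours. Within WT tumours r was 0.84 and within KO tumours 0.66. Without KO tumour 3 and WT tumour 4, the tumours farthest from the median Myc level, it was 0.64 over the other 16. Single tumours left out moved r between 0.68 (WT tumour 4) and 0.84 (KO tumour 9). In an interaction fit of limma, the slope on Myc differed between genotypes for 0 members in either direction (0% of all genes). The KO slope minus the WT slope was above 0 for 24 of 37 members (54.5% of all genes), but for 9 without KO tumour 6 and for 15 after quantile normalization, and the median over members, 0.04, was -0.18 without KO tumour 6 and 0.26 without KO tumour 3, so it has no settled direction. At an unadjusted p below 0.05 it was steeper in KO tumours for Cad, by 0.57 (0.466% of all genes), and shallower for Npm1, at -0.51 (0.281% of all genes), each with an adjusted p of 1.0. Without KO tumour 6 these counts were 0 and 2, and the count of shallower members was 0 without WT tumour 2, WT tumour 4 or KO tumour 3 and after median centring.

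The members were next set against proliferation, as the mean of 23 mitosis genes. In a limma fit with genotype, 3 of 37 members rose with the mitosis mean past the adjusted threshold (3.02% of all genes) and 0 fell (0.683% of all genes). These were Fbl with a slope of 0.87 (SE 0.17, limma adjusted p = 0.00637), Polr1a with 0.63 (SE 0.17, limma adjusted p = 0.0384) and Dkc1 with 0.67 (SE 0.18, limma adjusted p = 0.0395). The calls for 2 genes depended on the probe set. With the probe sets among genes of the own chromosome, Fbl had a slope of 0.48 (SE 0.16, limma adjusted p = 0.12) and did not pass, whereas Odc1 passed with 0.81 (SE 0.22, limma adjusted p = 0.0403), so that the 3 members called were Dkc1, Odc1 and Polr1a. On the probe set used, Fbl ran from 9.12 over 10.31 to 10.99 in WT and from 9.78 over 10.60 to 11.03 in KO tumours. Dkc1 ran from 8.19 over 9.31 to 9.63 in WT and from 8.79 over 9.45 to 9.85 in KO tumours. For both, WT tumour 3 was the lowest tumour. Ncl, with 0.57 (SE 0.16, limma adjusted p = 0.0526), was next, and ran from 10.85 over 11.14 to 12.06 in WT and from 11.28 over 11.43 to 12.04 in KO tumours. At an unadjusted p below 0.05 the positive slopes numbered 19 (9.56% of all genes) and the negative ones 0 (6.12% of all genes). The slope was positive for 35 of 37 members against 40.1% of all genes, with a median of 0.37 against -0.05. In a limma fit of the 9946 genes above the median gene, where all members lie, 753 were called upward, 10 members among them. There 1755 genes had a positive slope at an unadjusted p below 0.05, 19 members among them, and 5429 had a positive slope. In the fit over all genes the smallest t values were those of Nme2 (-0.11, SE 0.32), Rrp9 (-0.05, SE 0.17) and Gnl3 (0.0022, SE 0.22). Rrp9 ran from 5.62 over 5.77 to 6.23 in WT and from 5.27 over 5.76 to 6.37 in KO tumours. Gnl3 ran from 9.85 over 10.55 to 11.11 in WT and from 10.01 over 10.76 to 11.09 in KO tumours. The count of 3 was 1 without WT tumour 1, 2, 4 or 5 or KO tumour 3, 5 without WT tumour 9, 7 without WT tumour 3 or KO tumour 8, and 8 without KO tumour 4. It was 12 after median centring of the arrays, 14 with array weights and 10 among genes above the median gene. Over all genes the positive calls also rose, from 602 to 836 after median centring and to 1381 with array weights.

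The member mean correlated with the mitosis mean at r = 0.60 (rho = 0.51) and with the mean of 27 replication genes at r = 0.73 (rho = 0.66). Without KO tumour 6 and WT tumour 1, farthest from the median of both, these were 0.59 and 0.79. The members called depended on the list used. With the replication mean in place of the mitosis mean, limma called Dkc1, Odc1 and Pa2g4, among 294 positive calls over 19911 genes. All 37 member slopes were then positive, against 7739 over all genes, with a median of 0.59. At an unadjusted p below 0.05, 27 members rose in that limma fit, among 1532 genes. KO tumour 6 had the lowest mitosis mean, 7.42, and the second lowest member mean, 7.95. Beside this, 9 of 11 erythroid markers also rose with the mitosis mean in the limma fit of that mean with genotype. Their part in the member slopes was not tested apart from the covariate fit given next.

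**Figure D4:**
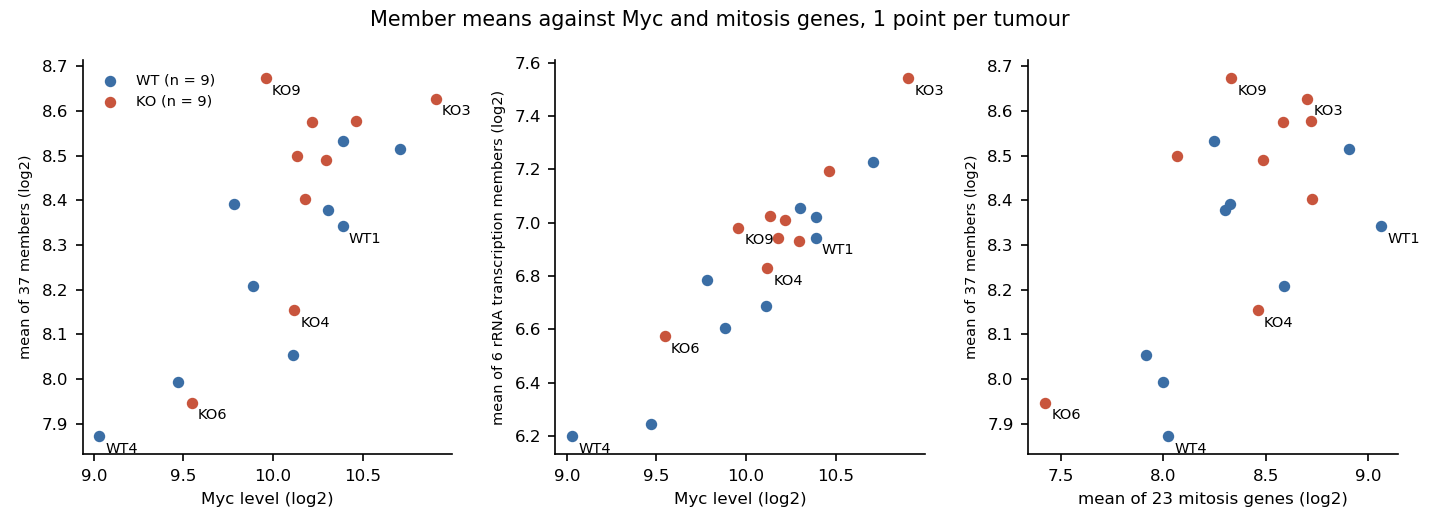
Each point is a tumour (blue WT, red KO), with the member mean against Myc level (left), the mean of the 6 rRNA transcription members against Myc level (middle) and the member mean against the mitosis mean (right), all log2 levels. The middle panel is the tightest, at r = 0.94; KO tumour 9 lies high at a middling Myc level in the left panel.

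Myc level and the mitosis mean were themselves correlated, at r = 0.67 over 18 tumours. With the mitosis mean as a further covariate, limma called 1 member for Myc level, Mybbp1a with a slope of 0.88 (SE 0.15, adjusted p = 0.0445), among 3 positive calls over all genes, and the median member slope was 0.33 with 32 of 37 positive. With Myc level as a further covariate, 0 members were called for the mitosis mean, 5 had an unadjusted p below 0.05, and the median slope was 0.07. Of 19914 genes in that limma fit, 1328 had a positive slope at that p. T cell markers went the other way from Myc, with r = -0.76 between their mean and Myc level and -0.59 with the member mean, and 7 of 13 fell with Myc level in the limma fit. The stromal marker mean correlated with the member mean at r = -0.67, and its part in the slopes was not tested. The neutrophil marker mean correlated with Myc level at r = -0.53 (rho = -0.24), which rests on WT tumours 4 and 5: r was -0.32 without WT tumour 4, -0.04 without both and -0.10 within KO tumours. With the T cell, macrophage and erythroid means as covariates 0 members and 0 of all genes were called for Myc level or for the mitosis mean. The median member slope on Myc level was then 0.38, with 32 positive and 14 at an unadjusted p below 0.05, and that on the mitosis mean 0.59, with 7. At that p 1414 of 19937 genes rose with Myc level and 1191 of 19915 with the mitosis mean in these limma fits.

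The member mean also moved with the array median. The median log2 level of an array correlated with the member mean at r = -0.63 and with Myc at r = -0.09. Among members the correlation with the array median was most negative for Cdk4 (-0.84), Nop56 (-0.80), Nop16 (-0.79), Nme2 (-0.75), Wdr12 (-0.75) and Rcl1 (-0.72), and it was near 0 for Nolc1 (0.05) and Noc4l (-0.05). KO tumour 9 had the lowest array median and WT tumour 3 and KO tumour 4 the highest. With the array median as a further covariate, which was added once results were known, 19 members rose with Myc level in limma, with Heatr1 (0.37, SE 0.10) and Ncl (0.53, SE 0.14) added. Over all genes the positive calls went from 399 to 646. In the genotype fit with that covariate the median member difference was 0.14 with 30 of 37 positive, against 0.20 and 33 without it. At a limma unadjusted p below 0.05, 4 members were higher in KO tumours, among 655 genes, against 6 among 564 without it.

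Other genes of the same pathways also had mostly positive slopes. Of 139 measured genes in 6 lists, 29 rose with Myc level in limma and 0 fell, with a median slope of 0.25 and 107 positive. Among RNA polymerase I genes 1 of 13 rose, Ubtf, the polymerase I activator UBF, with a slope of 0.74 (SE 0.13). This list as a whole lay near all genes, with 7 of 13 slopes positive (52.4% of all genes) and a median of 0.005. At a limma unadjusted p below 0.05, 4 of the 13 rose and 1 fell. Past the adjusted threshold the counts that rose were 3 of 12 for snoRNP genes and 4 of 42 for small subunit genes. For large subunit genes the count was 11 of 45, and Ftsj3, a ribosomal RNA methyltransferase, had 0.83 (SE 0.10). Nucleotide and polyamine genes had 7 of 17, including Atic of purine synthesis at 0.71 (SE 0.11) and Ctps, CTP synthase, at 1.09 (SE 0.22). Translation factors had 3 of 10, with Eif3b at 1.06 (SE 0.15). Between genotypes 0 of the 139 passed in limma, and 117 had positive differences, with a median of 0.15. The smallest p values in their lists were those of Taf1a (0.40, SE 0.14), Rrn3 (0.33, SE 0.13), Gar1 (0.38, SE 0.15), Znhit6 (0.16, SE 0.12), Bms1 (0.45, SE 0.19), Wdr36 (0.34, SE 0.16), Mdn1 (0.46, SE 0.17), Las1l (0.32, SE 0.13), Atic (0.37, SE 0.16), Paics (0.27, SE 0.13), Eif4b (0.41, SE 0.18) and Eif3b (0.48, SE 0.24). In the proliferation lists the corresponding genes were Nusap1 (-0.53, SE 0.18) and Ccnb2 (-0.32, SE 0.18) of mitosis and Fen1 (-0.23, SE 0.14) and Pola1 (0.36, SE 0.23) of replication. These 4 do not stand for their lists. Differences were above 0 for 14 of 23 mitosis genes and 17 of 27 replication genes, with medians of 0.07 and 0.06. The mitosis mean differed by 0.01 (SE 0.19) and the replication mean by 0.03 (SE 0.13). Whether the lists differ from the members in their slopes was not tested.

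Ribosomal protein genes, the structural end product of the pathway, had 0 of 31 measured genes past the threshold with Myc level in limma in either direction (0 at an unadjusted p below 0.05 upward and 5 downward). Their slope was positive for 5 of 31, with a median of -0.13. Their mean correlated with the member mean at r = 0.21, and -0.09 without WT tumour 3 and KO tumour 4. Their mean level was 12.01 ± 0.15 in WT and 12.03 ± 0.15 in KO tumours, with Rps14 at a KO minus WT difference of 0.14 (SE 0.11) and Rpl30 at 0.22 (SE 0.22). Of 43 ribosomal protein genes named, only these 31 had a probe set with 1 symbol. Some had many, such as Rpl13 with 9 and Rps6 with 8, and the brightest was read. Whether those probe sets read copies elsewhere, such as processed pseudogenes, was not tested, which limits what these levels and slopes stand for.

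In the MYC network 1 of 11 genes besides Myc rose with Myc level in limma. This was Mxi1, a MAX partner that opposes MYC, with a slope of 0.50 (SE 0.12, adjusted p = 0.0222) and r = 0.52 with the member mean. Max had a slope of 0.08 (SE 0.19), and the antagonists Mxd1, Mxd3, Mxd4, Mnt and Mga had 0.26, -0.04, 0.11, 0.08 and 0.30. The paralogs Mycn and Mycl had -0.13 and -0.17, and Mlx and Zbtb17 had -0.21 and -0.08. Between genotypes Max differed by 0.26 (SE 0.16) and Mxd1 by -0.26 (SE 0.14), and 0 of 12 passed in limma (0 at an unadjusted p below 0.05).

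The genes outside the list whose levels were most like the member mean over the 18 tumours were ranked by Pearson r. The 12 highest were Cnot9 (0.938), Nsun2 (0.937), Gemin5 (0.935), Prmt5 (0.934), Prmt1 (0.932), Ruvbl1 (0.925), Gart (0.915), Immt (0.913), Utp4 (0.909), Prpf31 (0.909), Exo1 (0.909) and Sae1 (0.909). Among them are the RNA methyltransferase Nsun2, the protein arginine methyltransferases Prmt5 and Prmt1, the AAA+ ATPase Ruvbl1, the purine synthesis enzyme Gart and the processome subunit Utp4.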

How the data were processed

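Per the labels' protocols, total RNA of each tumour was labelled for Affymetrix arrays, 1 array per tumour. The submitters' processing notes name RMA (background correction, quantile normalization and summary of probes) for the deposited intensity values. Its version, the set of arrays normalized together and the genome build are not given in the sources used here, and values ran from 1.63 to 14996 on a linear scale and, though log2 values had been planned for, were linear and were transformed to log2 with no pseudocount and no filter. Of 35556 probe sets, 21789 had 1 gene symbol, 1621 several and 12146 none, and each gene was read from its brightest probe set. Fits used limma 3.58.1 in R 4.3.3 (lmFit and eBayes) over all genes, with Benjamini-Hochberg adjustment and a threshold of 0.05. The fit on Myc left out Myc (19937 genes) and the fit on the mitosis mean left out its genes (19915). Members and lists were chosen with earlier results of these data known. The member mean was given no p. Every member was named. Tumour ranges were given for the 6 members with the smallest p by genotype, and the largest and smallest t for Myc and mitosis, the closest and loosest members, the 12 most similar genes, the MYC network and 2 genes per list were named by fixed rules. Lists were matched by symbol. Scan dates are not given, so batches were not tested. Same-numbered WT and KO tumours did not pair (r of deviations above 0.1 in 4 of 9). The fits were tested on simulated data for 19938 genes, with independent noise per gene and 200 genes changed in each comparison. Of 1.5-fold and 2-fold genotype changes, 70.6% and 92.4% were recovered, and 36.8% and 85.0% of slopes of 0.5 and 1.0 on Myc. Of the calls, 6.72% and 4.11% were false. The real members vary together (median r 0.49), and their largest genotype difference, 1.37-fold, is below the smallest fold simulated. The recovered shares therefore do not apply to member differences of that size. Python 3.11.15 did the other steps.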

Additional observations from a re-analysis of the deposited data

Results flagged for a closer look

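In 82 groups of 9 tumours (37 members, Myc, the member mean and the mitosis and replication means, in each genotype), 6 had a tumour that stood apart from the rest by Dixon's gap test, where chance gives about 1 in 20, or 4.1. Rrs1, a large subunit assembly factor, was low in WT tumour 3 at 7.94, with the next WT tumour at 9.56, and low in KO tumour 6 at 9.49, with the next at 9.96. Npm1 was low in KO tumour 3 at 11.27, the tumour with the highest Myc level, with the next at 11.69. Pa2g4 was low in KO tumour 6 at 9.97, with the next at 10.55. The same tumour had a mitosis mean of 7.42 and a replication mean of 7.24, with the next KO tumours at 8.07 and 7.85.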

How the results depend on the processing

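No member passed for genotype, or for a difference of Myc slope between genotypes, in any alternative run. The count of members that rose with Myc level was 5 to 21 with single tumours left out, 0 with the replicate block, 1 with the mitosis mean as a further covariate and 0 with the T cell, macrophage and erythroid means; in all other settings it was 17 to 22. The count for the mitosis mean was 1 to 8 with single tumours left out, 5 with the mean over probe sets, 12 after median centring, 10 among genes above the median gene, 14 with array weights, 0 with the replicate block, 8 without WT tumour 3 and KO tumour 4, 6 with the array median as a further covariate, 0 with Myc level as a further covariate, 1 with no genotype term and 0 with the T cell, macrophage and erythroid means; the cause was not tested. The replicate numbers share only a number (1 of 9 WT tumours correlated best with its own number), and the block leaves fewer degrees of freedom. With the block the positive calls for Myc level over all genes went from 399 to 0. The median member slope went from 0.43 to 0.33 and the positive member slopes from 35 to 30. At a limma unadjusted p below 0.05, 16 members rose, among 969 genes, and 1 fell, among 1208. What brought these changes was not tested. Positive calls for the mitosis mean over all genes were 836 after median centring and 1381 with array weights, against 602 in the fit described above. The correlation of the member mean with the mitosis mean was 0.44 with the median over members. The member mean difference by genotype was 0.137 to 0.246 with single tumours left out, its r with Myc 0.675 to 0.836 and with the mitosis mean 0.495 to 0.669. Array signal gives no count of molecules, so the number of tumours limits the precision.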
